A study of Mus musculus with 11 samples.

Results

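The genes described here are 47 interferon-stimulated genes, measured in macrophages isolated from mouse colon. They were taken by symbol from 23282 entries of the deposited count files, and all 47 were found. Of these, 28 had enough counts to be tested for differences between groups, out of 6987 entries tested. The study profiled macrophages of wild-type (WT) mice and of mice of the strain named Csf1r-EP4-/-, called KO here, around a course of colitis. Colitis was induced with 2.5% dextran sodium sulphate (DSS), a polymer that injures the colon lining, given for 5 days in the drinking water. There were 3 KO libraries and 2 WT libraries at day 0, and 3 of each genotype label at day 39. EP4 is the prostaglandin E2 receptor encoded by Ptger4, and Csf1r encodes the macrophage growth factor receptor. How the strain was made, which cells lack the receptor, the age of the mice, the number of mice behind a library and whether day 0 preceded the DSS are not given in the sources used here. All groups share the DSS protocol and the sort, for cells positive for CD45, CD11b, MHCII and CD64 and negative for Ly6G and Ly6C. Because nothing says that the libraries came from separate animals, p-values measure the spread between these libraries, which may be technical.

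Interferons are secreted proteins that signal through Janus kinases to STAT transcription factors. Type I and type III interferons lead to a complex that holds STAT2 and IRF9 and binds the interferon-stimulated response element. Interferon gamma acts mainly through the gamma-activated site. The genes switched on in this way restrict viruses and intracellular bacteria, sense foreign nucleic acids, attract lymphocytes and amplify or end the response. Commensal bacteria are known to sustain a low, tonic level of interferon signalling in phagocytes of the gut.

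The libraries held between 4003299 and 14207919 counts, and between 1864 and 4170 entries reached 100 counts in each. Of the 76857 values of tested entries, 39.7% were 0, 19.4% were 1 to 10 counts and 19.3% were 1000 counts or more, and library pairs correlated at 0.196 to 0.428 (Spearman, 55 pairs, across genes). The targeted gene went against its labels at day 0, where Ptger4 had 1350, 0 and 890 counts in the KO libraries and 0 and 0 in the WT libraries. At day 39 the WT libraries, with 1481, 152 and 7286 counts, lay above KO libraries 1 and 2, with 1 and 8 counts, while KO library 3 had 4501. The part of the gene that was deleted is not given, and a count near the 3′ end may lie outside it. Genotype directions below therefore concern the libraries labelled KO and WT. The macrophage receptor gene Csf1r and the complement genes C1qa, C1qb and C1qc were detected in all 11 libraries.

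Promoter sequence was available for 37 of the 47 genes in RefSeq (GRCm38.p6), as 250 bases before and 50 bases after each start. The core of the interferon-stimulated response element (GAAA, any 2 bases, GAAA, read on either strand) occurred in 20 of these 37 promoters (54.1%), against 3.99% of 27025 genes. The gamma-activated site, TTCNNNGAA, occurred in 12 (32.4%, against 9.55%), and both occurred in 7 (18.9%, against 0.540%). Genes with the response element were found among the well detected and the undetected members alike. It was present in 4 of the 6 promoters of genes with at least 100 counts in 6 or more libraries (Bst2, Ifitm2, Ifitm3 and Isg15), and in 9 of the 16 promoters of genes that reached 100 counts in 1 library or none (56.2%). The sequences show such pairs on the gene's own strand, 5′ to 3′, with each match in capitals. A match is a description of the letters and not a measured binding site. The first 3 belong to genes detected widely, the next 3 to genes that never reached 100 counts, and the last 2 hold the gamma-activated site of the interferon regulatory factor genes detected in 10 libraries.
Isg15 (chr4:156200855-156200916, minus strand, 3 overlapping matches): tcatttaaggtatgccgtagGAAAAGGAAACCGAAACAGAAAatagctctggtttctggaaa
Bst2 (chr8:71537567-71537622, minus strand, 2 overlapping matches): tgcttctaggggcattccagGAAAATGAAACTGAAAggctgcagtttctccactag
Ifitm2 (chr7:140955978-140956027, minus strand): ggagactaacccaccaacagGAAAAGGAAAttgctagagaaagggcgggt
Ifit3 (chr19:34583353-34583402, plus strand): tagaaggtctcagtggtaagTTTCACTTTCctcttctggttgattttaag
Oas3 (chr5:120777705-120777754, minus strand): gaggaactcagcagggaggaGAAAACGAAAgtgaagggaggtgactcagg
Irgm1 (chr11:48871421-48871470, minus strand, 2 overlapping matches): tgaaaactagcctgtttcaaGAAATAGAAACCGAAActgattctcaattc
Irf1 (chr11:53769904-53769952, plus strand): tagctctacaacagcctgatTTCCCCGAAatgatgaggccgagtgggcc
Irf8 (chr8:120736167-120736233, plus strand, 2 matches): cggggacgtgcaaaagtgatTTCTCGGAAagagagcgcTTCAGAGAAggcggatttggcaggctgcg
In Bst2 the response element overlaps a TTCNNNGAA match that starts 6 bases before it.

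The 47 genes were at 0 in fewer of their values than the entries of the files at large. Of their 517 values, 278 (53.8%, against 77.0% over all entries) were 0, 91 (17.6%) were 1 to 10 counts and 21 (4.06%) were 11 to 99 counts, while 65 reached 100 but not 1000 counts and 62 reached 1000 or more. There were 10 genes that reached 100 counts nowhere (21.3%, against 59.0% of all entries), 12 in 1 library (25.5%, against 13.9%), 18 in 2 to 5 libraries (38.3%, against 20.2%) and 7 in 6 or more (14.9%, against 6.95%). Among values of the 28 tested members, 36.4% were 0, against 39.7% over all tested entries. No gene of the list reached 100 counts in all 11 libraries, which 1.08% of all entries did. The 7 widely detected genes were Irf1, Irf8, Ifitm3, Ifitm2, Bst2, Zbp1 and Isg15. Several members were at or near 0 throughout: Cmpk2 had no count in any library, Mx1 and Ifi35 had at most 1 count, and Ifit3 and Oas3 had 2 counts in a single library each. A count of 0 allows up to 3 counts, or 0.196 to 0.911 CPM (counts scaled to a library of 1000000) depending on the library, and covers counting error only.

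**Figure D1:**
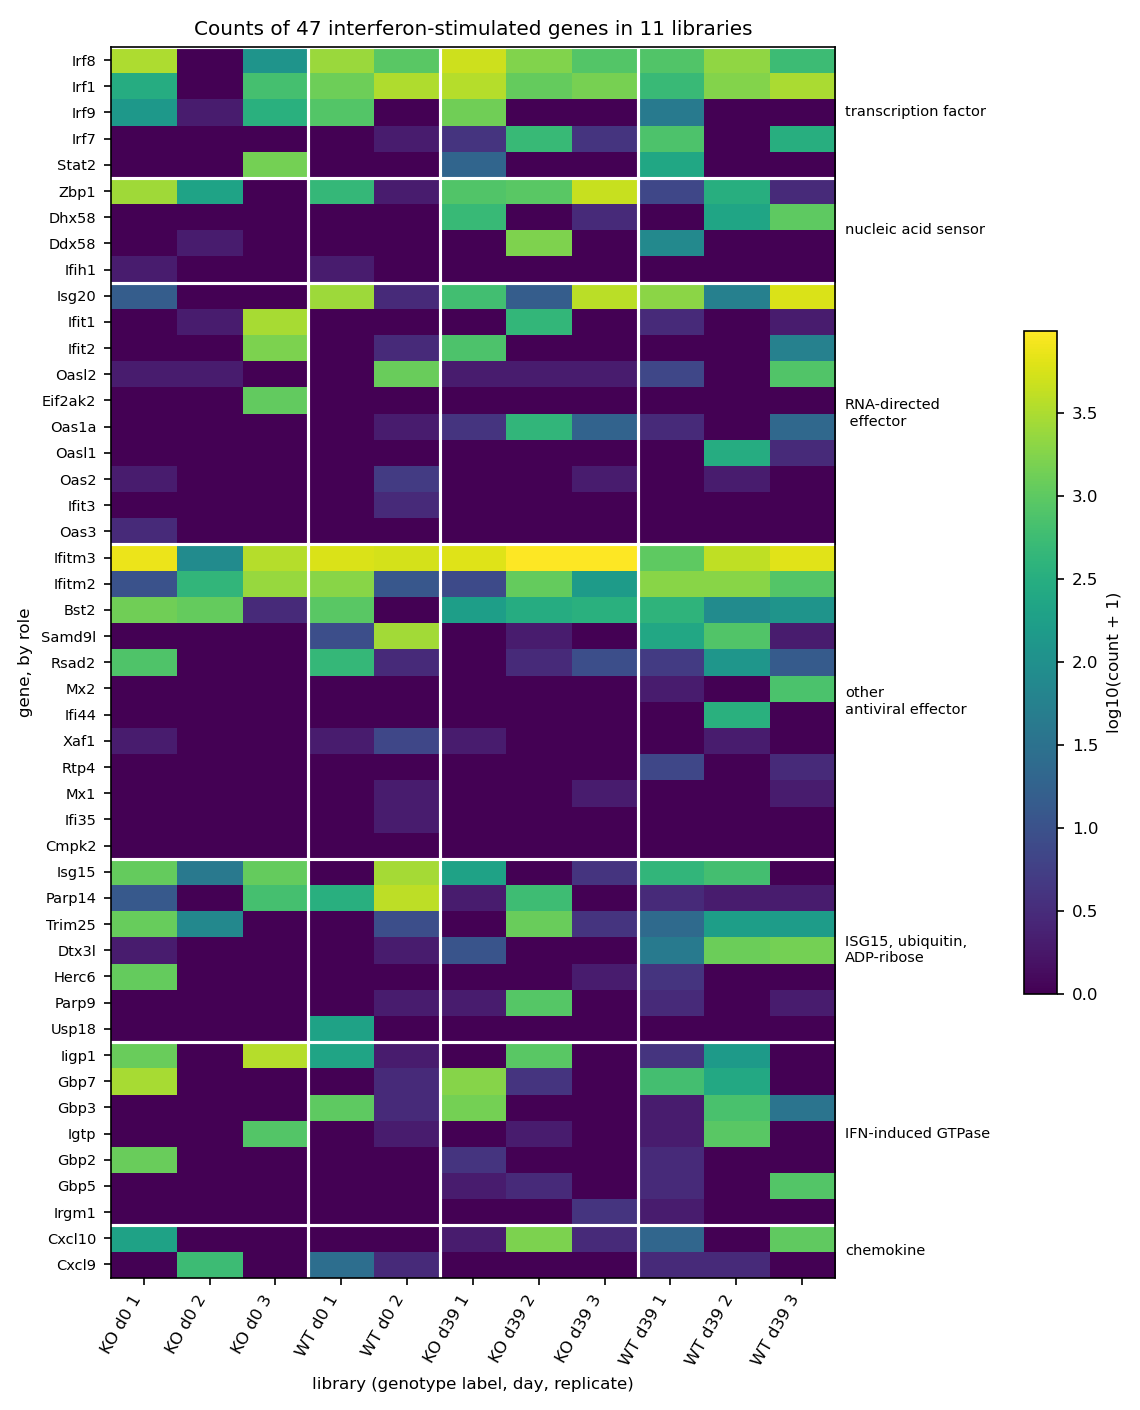
Counts of the 47 genes (rows, by role) in each of the 11 libraries (columns, by genotype label, day and replicate), coloured by log10(count + 1). Filled cells are scattered: 53.8% of the 517 values are 0, and the rows that reach 100 counts in 6 or more libraries are Irf1, Irf8, Ifitm3, Ifitm2, Bst2, Zbp1 and Isg15.

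Levels are given in CPM of the effective library size. Since the libraries count reads near the 3′ end, no length correction was applied, and shares of counts between genes are descriptions. The 47 genes together came to 4021, 318 and 1330 CPM in the KO day 0 libraries, 3324 and 4862 CPM in the WT day 0 libraries, 5777, 4616 and 6003 CPM in the KO day 39 libraries and 2788, 3021 and 5151 CPM in the WT day 39 libraries. The sum was lowest in KO day 0 library 2, where 4 members reached 100 counts, against 7 to 17 in the other libraries. That library had 2625 entries at 100 counts or more. Its skeletal muscle markers summed to 21654 CPM, its stromal markers to 18508 CPM and the markers of the sort to 16106 CPM. KO day 0 library 3 was similar in these, at 18385, 19361 and 11674 CPM, with 13 members at 100 counts. The part of these markers in the low sum of library 2 was not tested. The KO day 39 sums lay above all KO day 0 sums, while the WT sums of both days overlapped. With upper-quartile scaling KO day 39 library 2, at 3952 CPM, fell below KO day 0 library 1, at 4167 CPM, and the WT sums did not overlap (4697 and 21572 CPM at day 0, 4127 CPM at most at day 39). Group means were 1890 ± 1914 CPM (SD, n = 3) for KO day 0, 4093 ± 1088 (n = 2) for WT day 0, 5465 ± 744 (n = 3) for KO day 39 and 3653 ± 1302 (n = 3) for WT day 39. Without KO day 0 library 2 the KO day 0 mean was 2676 CPM. Without replicate 1 it was 824 CPM. The order of the groups depended on scaling: upper-quartile factors put WT day 0 at 13134 CPM, KO day 39 at 4212, WT day 39 at 3117 and KO day 0 at 1795. Of all libraries, WT day 0 library 2 was raised most by these factors, from 4862 to 21572 CPM. It also had the fewest entries at 100 counts or more (1864). No test was made on these sums.

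**Figure D2:**
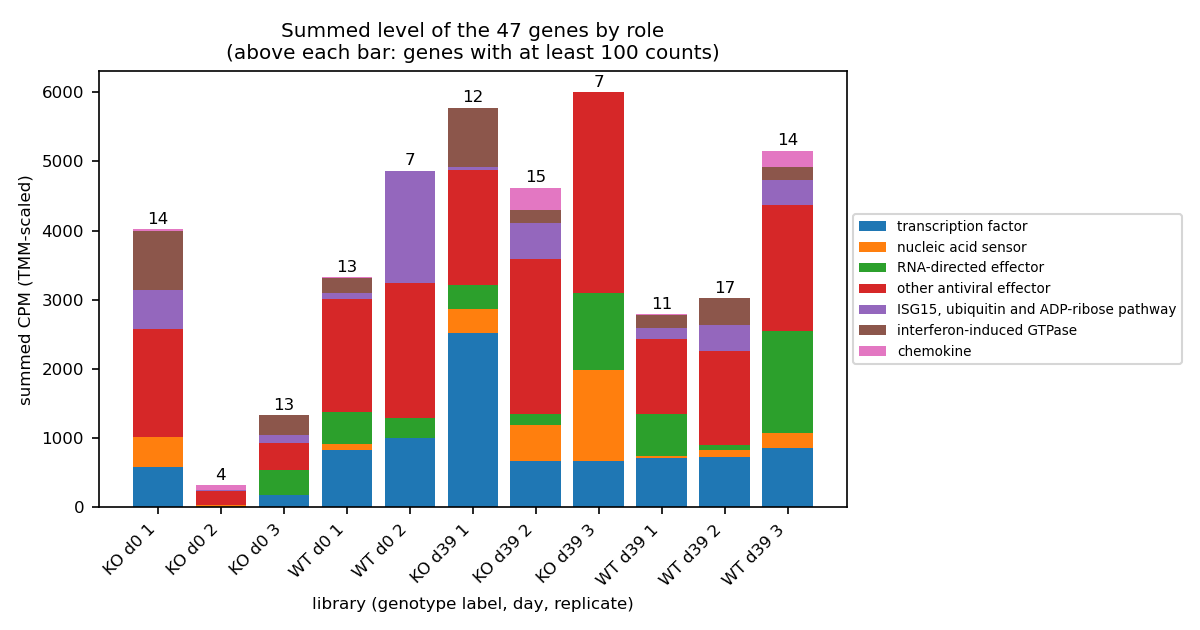
Summed CPM of the 47 genes in each library (bars, stacked by role), with the number of genes at 100 counts or more above each bar. The total runs from 318 CPM in KO day 0 library 2 to 6003 CPM in KO day 39 library 3, and "other antiviral effector", which holds Ifitm3, is a large part of most bars.

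Ifitm3 was the member with the largest share of the counts in 9 of 11 libraries, at 17.7% to 45.9% of the sum. Its exceptions were KO day 0 library 2, led by Bst2 (44.6%), and WT day 39 library 1, led by Isg20 (21.6%). Without Ifitm3 the group means were 1399, 2920, 3360 and 2815 CPM for KO day 0, WT day 0, KO day 39 and WT day 39.

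Of the 5 transcription factors, Irf1 and Irf8 were detected widely and the others reached 100 counts in 4 libraries or fewer. Irf1, an early activator that responds strongly to interferon gamma, stood at 47.7, 0 and 43.2 CPM in the KO day 0 libraries, 232 and 785 CPM in the WT day 0 libraries, 918, 225 and 430 CPM in the KO day 39 libraries and 156, 331 and 663 CPM in the WT day 39 libraries. The KO day 0 libraries were the low ones and did not overlap any other group. Irf8, a factor needed for the development and function of mononuclear phagocytes, stood at 518, 0 and 7.59 CPM in the KO day 0 libraries, 443 and 221 CPM in the WT day 0 libraries, 1258, 342 and 241 CPM in the KO day 39 libraries and 243, 399 and 120 CPM in the WT day 39 libraries. KO day 0 libraries 2 and 3 were low while library 1 overlapped the others. Irf7, the amplifier of the type I response, reached 100 counts at day 39 alone, with 485 counts in KO day 39 library 2 and 746 and 323 counts in WT day 39 libraries 1 and 3, and at most 1 count at day 0. The partners of the STAT complex were uneven too. Irf9 ranged from 0 to 1326 counts, and Stat2 was carried by 1470 counts in KO day 0 library 3 and 239 in WT day 39 library 1.

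Among the 4 nucleic acid sensors, Zbp1 was the widely detected one. Zbp1, which recognises left-handed double-stranded nucleic acid and can trigger cell death, stood at 426, 26.4 and 0 CPM in the KO day 0 libraries, 81.6 and 0.236 CPM in the WT day 0 libraries, 213, 185 and 1311 CPM in the KO day 39 libraries and 1.82, 59.6 and 0.438 CPM in the WT day 39 libraries. All KO day 39 libraries lay above all WT day 39 libraries, and KO day 39 library 3 held 56.9% of its CPM summed over the libraries. Dhx58, a regulator of the cytosolic RNA sensors, had no count in the 5 day 0 libraries. At day 39 it stood at 128, 0 and 0.576 CPM in the KO libraries and 0, 40.6 and 225 CPM in the WT libraries, so that both labels had libraries at or near 0. Ddx58, which encodes RIG-I, was carried by 1688 counts in KO day 39 library 2. Ifih1, which encodes MDA5, had 1 count in each of 2 day 0 libraries and none at day 39.

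The 10 RNA-directed effectors bind or degrade viral RNA, or stop its translation. The exonuclease gene Isg20 stood at 2.25, 0 and 0 CPM in the KO day 0 libraries, 460 and 0.471 CPM in the WT day 0 libraries, 159, 2.77 and 1106 CPM in the KO day 39 libraries and 602, 9.93 and 1272 CPM in the WT day 39 libraries. Each group but KO day 0 held both a low and a high library. Ifit1, which binds RNA without a fully methylated cap, and its relative Ifit2 reached 2960 and 1603 counts in KO day 0 library 3. Elsewhere Ifit1 passed 100 counts in KO day 39 library 2 alone (433 counts) and Ifit2 in KO day 39 library 1 alone (743 counts). The oligoadenylate synthetase family, which activates RNase L, was sparse: Oas1a had 419 counts in KO day 39 library 2 and at most 21 elsewhere, Oas2 at most 4, Oasl1 297 counts in WT day 39 library 2, and Oasl2 1201 and 824 counts in WT day 0 library 2 and WT day 39 library 3. Oas1a shares 21.1% of the 50-base stretches at its 3′ end with Oas1g, which had 416 counts in the same library, so the split between them is uncertain. Eif2ak2, which encodes the kinase PKR, was found in KO day 0 library 3 alone, with 1086 counts.

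The 12 other antiviral effectors included the membrane proteins that were best detected. Ifitm3, which blocks virus entry at endosomes, stood at 1225, 10.7 and 236 CPM in the KO day 0 libraries, 1043 and 1302 CPM in the WT day 0 libraries, 1604, 1954 and 2756 CPM in the KO day 39 libraries and 305, 759 and 1449 CPM in the WT day 39 libraries. The KO day 39 libraries were above every other library, also with DESeq2 size factors or library size only. With upper-quartile scaling they were not, at 1198, 1673 and 2006 CPM. The WT day 0 libraries then stood at 1474 and 5776 CPM and KO day 0 library 1 at 1269 CPM. That scaling raised WT day 0 library 2 most. KO day 39 library 1 was also below WT day 0 library 1 and KO day 0 library 1. The KO day 39 libraries were still above all WT day 39 libraries, at most 1161 CPM. The summed monocyte markers of the KO day 39 libraries, at 545 to 1441 CPM, were also above those of all KO day 0 and WT day 39 libraries. WT day 0 library 1, at 766 CPM, lay above KO day 39 library 1, at 545 CPM. Of the 6 monocyte markers, 1, 2 and 2 reached 100 counts in the KO day 39 libraries. The sort took Ly6C-negative cells, a gate that leaves out classical monocytes, and the part of monocyte RNA in the level of Ifitm3 was not tested. Ifitm2, its relative, stood at 1.45, 54.4 and 154 CPM in the KO day 0 libraries, 343 and 2.59 CPM in the WT day 0 libraries, 1.81, 219 and 45.2 CPM in the KO day 39 libraries and 589, 356 and 186 CPM in the WT day 39 libraries. Low values occurred in every group except WT day 39, whose range overlapped that of KO day 39. Ifitm2 shares 27.5% of its 3′ end stretches with other listed or annotated genes. Bst2, or tetherin, which holds budding virus at the cell surface, stood at 213, 142 and 0.131 CPM in the KO day 0 libraries, 168 and 0 CPM in the WT day 0 libraries, 44.7, 57.7 and 99.1 CPM in the KO day 39 libraries and 120, 15.3 and 25.2 CPM in the WT day 39 libraries. The groups overlapped, and each day 0 group had 1 library at or near 0. Samd9l, a cytoplasmic restriction factor, stood at 0 in all KO day 0 libraries and at 0, 0.198 and 0 CPM in the KO day 39 libraries. It stood at 1.43 and 647 CPM in the WT day 0 libraries and 75.0, 149 and 0.219 CPM in the WT day 39 libraries. Every WT library lay above every KO library of its day, although WT day 39 library 3 and KO day 39 library 2 had 1 count each. Rsad2, which encodes viperin, ranged from 0 to 782 counts. Mx2 and Ifi44 each reached 100 counts in 1 WT day 39 library, with 719 and 347 counts, while Rtp4 and Xaf1 never passed 6 counts.

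**Figure D3:**
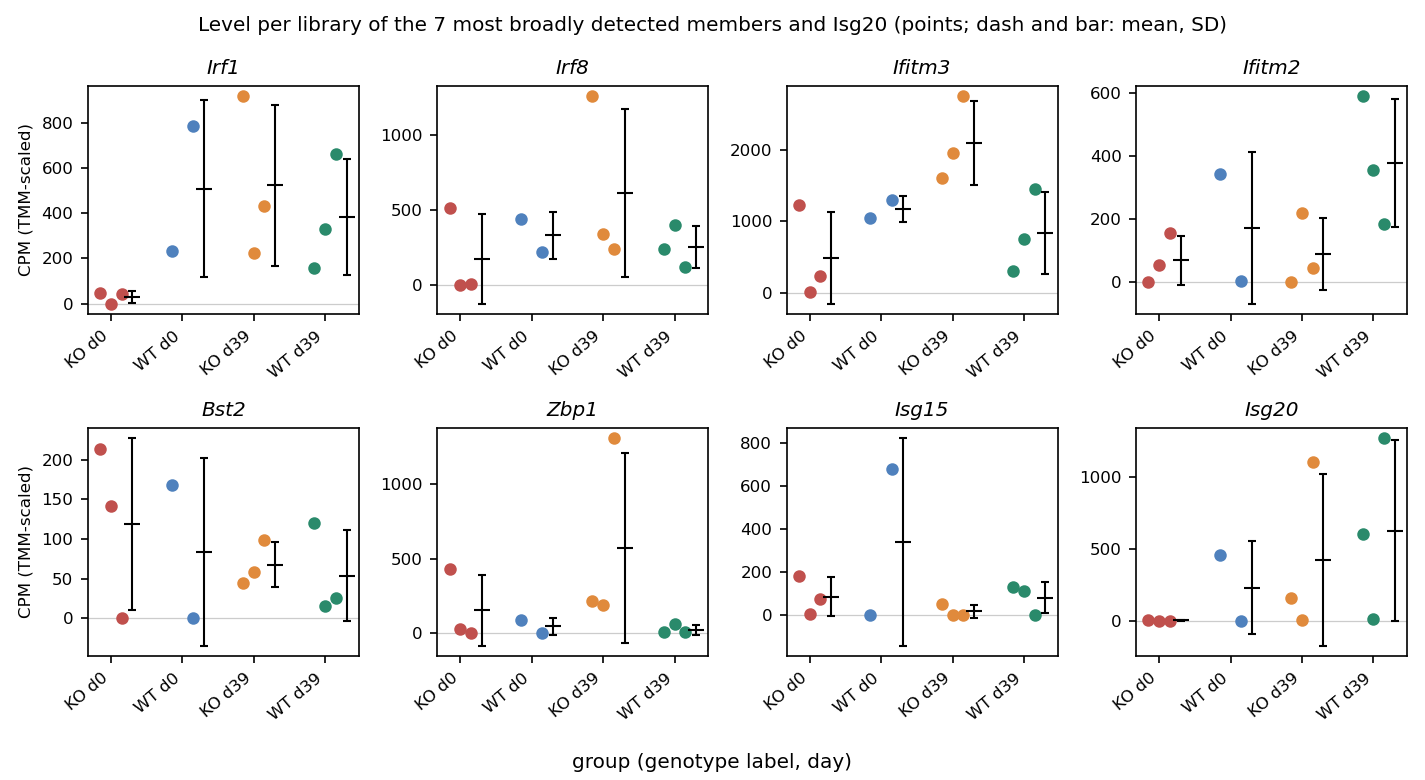
CPM per library (points) of the 7 genes detected with at least 100 counts in 6 or more libraries, and of Isg20, by group, with the group mean and SD (bars). Scatter within groups is wide, and Ifitm3 in the KO day 39 libraries (1604 to 2756 CPM) lies above its values in all other libraries, which did not hold with upper-quartile scaling.

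The 7 genes of the ISG15, ubiquitin and ADP-ribose pathway attach or remove the ubiquitin-like ISG15 or modify proteins in the response. Isg15 itself stood at 182, 5.14 and 73.5 CPM in the KO day 0 libraries, 0 and 679 CPM in the WT day 0 libraries, 52.5, 0 and 0.864 CPM in the KO day 39 libraries and 131, 115 and 0 CPM in the WT day 39 libraries. WT day 0 library 2 held 54.8% of its CPM summed over the libraries, and the groups overlapped. Parp14, an ADP-ribosyltransferase, stood at 1.93, 0 and 43.4 CPM in the KO day 0 libraries, 59.1 and 933 CPM in the WT day 0 libraries, 0.259, 111 and 0 CPM in the KO day 39 libraries and 0.607, 0.184 and 0.219 CPM in the WT day 39 libraries. The WT day 0 libraries were above those of WT day 39, and WT day 0 library 2 held 81.2% of the CPM summed over the libraries. Dtx3l, the ubiquitin ligase that partners Parp9, stood at 13.1, 231 and 321 CPM in the WT day 39 libraries and at most 2.59 CPM in the others. Parp9 did not follow it and reached 100 counts in KO day 39 library 2 alone (860 counts). Trim25, a ligase for RIG-I, ranged from 0 to 1224 counts, and Usp18, which removes ISG15, and the ligase gene Herc6 reached 100 counts in 1 day 0 library each, with 198 and 1118 counts.

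The 7 interferon-induced GTPases act on the vacuoles of intracellular microbes. Gbp3 had no count in the KO day 0 libraries and stood at 180 and 0.471 CPM in the WT day 0 libraries, 372, 0 and 0 CPM in the KO day 39 libraries and 0.304, 131 and 7.45 CPM in the WT day 39 libraries. Single libraries carried it in 3 of the 4 groups. Gbp3 shares 5.98% of the 50-base stretches at its 3′ end with Gbp7. In KO day 39 library 1 they had 1440 and 1851 counts, and in KO day 0 library 1 they had 0 and 2930. Igtp stood at 0, 0 and 54.3 CPM in the KO day 0 libraries, 0 and 0.236 CPM in the WT day 0 libraries, 0, 0.198 and 0 CPM in the KO day 39 libraries and 0.304, 174 and 0 CPM in the WT day 39 libraries. Gbp7 reached 471 CPM in KO day 0 library 1 and 479 CPM in KO day 39 library 1, and Iigp1 reached 193 and 229 CPM in KO day 0 libraries 1 and 3, with the remaining libraries at or below 193 and 184 CPM respectively. Gbp2 and Gbp5 each reached 100 counts in 1 library, with 1196 and 845 counts, and Irgm1 had at most 3 counts. Both chemokines are ligands of CXCR3 on T cells. Cxcl9 reached 543 counts in KO day 0 library 2 and at most 27 elsewhere. Cxcl10 stood at 32.6, 0 and 0 CPM in the KO day 0 libraries, 0 in both WT day 0 libraries, 0.259, 323 and 0.576 CPM in the KO day 39 libraries and 6.07, 0 and 232 CPM in the WT day 39 libraries.

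Between days, 37 members reached 100 counts somewhere. At day 39 alone there were 10 (27.0%): Irf7, Ddx58, Dhx58, Oas1a, Oasl1, Mx2, Ifi44, Dtx3l, Parp9 and Gbp5. The share over all 9557 such entries was 25.5%, so the members were near the background. At day 0 alone there were 5 (13.5%, background 22.1%): Eif2ak2, Usp18, Herc6, Gbp2 and Cxcl9. Day 39 has 6 libraries and day 0 has 5.

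Comparing day 39 with day 0 over both genotype labels, the fitted level was above 0 change for 20 of the 28 tested members, against 59.8% of all tested entries, with a median log2 fold change of 1.06 against 0.76 over all entries. Upper-quartile scaling lowered the 20 to 16 and the medians to 0.55 against 0.18. None of the 28 passed the edgeR quasi-likelihood test at an adjusted p of 0.05 (0.301% of all entries did). At an unadjusted p under 0.05 there were 6 (background 19.2%), with Dhx58, Ddx58, Oas1a, Isg20 and Irf7 higher at day 39 (background 13%) and Cxcl9 lower (background 6.21%). DESeq2 called 5, all higher: Dhx58, Dtx3l, Oas1a, Isg20 and Irf7, where it called 14% of all entries higher and 17.4% in either direction. For Isg20 the log2 difference was 5.28 ± 2.09 (SE), and its adjusted p by edgeR was 0.192. Without KO day 0 replicate 1 its log2 fold change was 7.86 and its adjusted p by edgeR was 0.0462. Over all fits that left out 1 library its log2 fold change ran from 4.09 to 9.53. Dhx58, at 0 in every day 0 library, was at least 135-fold higher at day 39 by the floor of 3 counts per library (adjusted p 0.192 by edgeR), with 3 of 6 day 39 libraries above 100 counts. The 7 widely detected genes had log2 fold changes from -2.17 ± 2.58 for Isg15 to 1.85 ± 1.66 for Irf1, and the smallest adjusted p by edgeR was 0.577, for Irf1. Leaving out 1 library turned the direction of Zbp1, Isg15, Ifitm2 and Bst2, and upper-quartile scaling turned that of Ifitm3 and Irf8, so that Irf1 alone of these 7 kept its direction under all alternatives run.

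**Figure D4:**
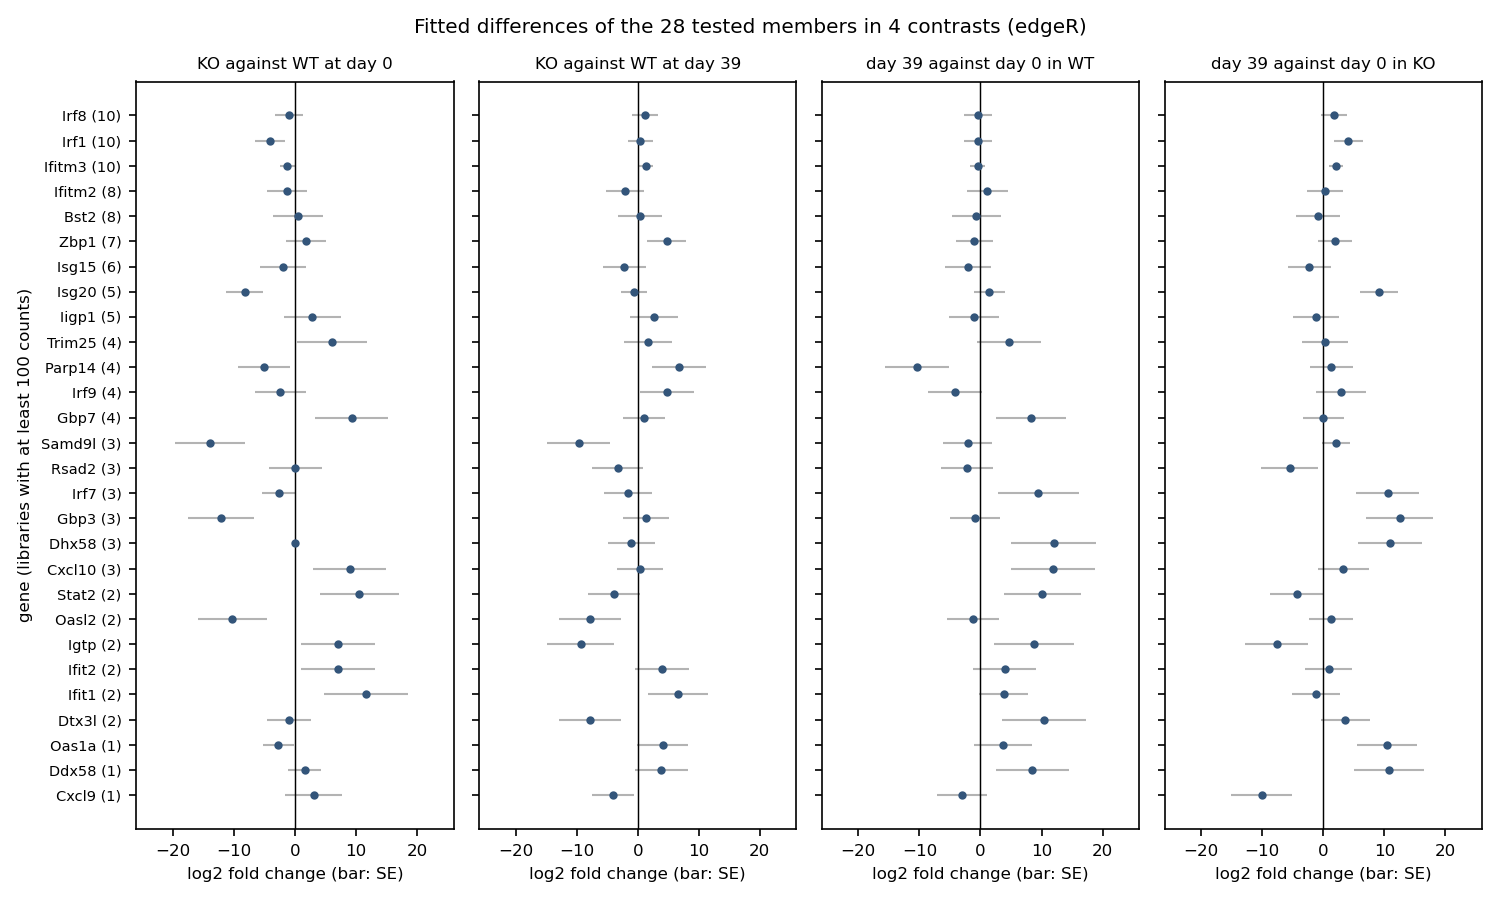
Log2 fold changes of the 28 tested genes with SE (edgeR quasi-likelihood fit) in 4 contrasts: KO against WT at day 0 and at day 39, and day 39 against day 0 in WT and in KO. Error bars of several log2 units are common, and 0 of 28 genes passed an adjusted p of 0.05 in any of the panels; folds of genes at 0 in a group depend on the prior count.

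In the libraries labelled KO, the fitted level was higher at day 39 for 20 of 28 members (71.4%, against 49.2% of all entries), and the median log2 fold change was 1.55 against 0 over all entries. In the same contrast the epithelial marker sums went from 74.7 to 1340 CPM at day 0 to 3840 to 8624 CPM at day 39, and the monocyte marker sums from 76.8 to 302 CPM to 545 to 1441 CPM. At 100 counts or more there was 1 monocyte marker in each KO day 0 library, and 1, 2 and 2 at day 39. Skeletal muscle markers summed to 18385 and 21654 CPM in 2 of the 3 day 0 libraries, against 2563 to 3583 CPM at day 39. The part of these in the change was not tested. None of the 28 passed the edgeR test at an adjusted p of 0.05 (background 0.157%). At an unadjusted p under 0.05 there were 6 members (background 18.2%): 5 higher (Dhx58, Gbp3, Oas1a, Isg20 and Irf7, background 10.8%) and 1 lower (Cxcl9, background 7.39%). All KO day 39 libraries lay above all KO day 0 libraries for Irf1, Ifitm3, Isg20, Irf7, Oas1a and Oasl2 (background 8.07%), of which Ifitm3 overlapped with upper-quartile scaling, and several of these rest on a few counts. Oasl2 had at most 1 count in these libraries, and the lowest KO day 39 values were 3 counts for Irf7, 3 counts for Oas1a and 14 counts for Isg20, which also had 14 counts in KO day 0 library 1. Ifitm3 had a log2 fold change of 2.10 ± 1.15 (adjusted p 0.293 by edgeR) and Irf1 of 4.11 ± 2.37 (adjusted p 0.312 by edgeR). Isg20, with the smallest p, had a log2 fold change of 9.12 ± 3.06 (adjusted p 0.273 by edgeR). Gbp3 was at least 350-fold higher by the floor, resting on 1 library (adjusted p 0.273 by edgeR), and its log2 fold change was 0 without KO day 39 replicate 1. DESeq2 called 4 members higher (Dhx58, Oas1a, Isg20 and Irf7), where it called 7.91% of all entries higher and 16.4% in either direction. Over the fits that left out 1 library, the log2 fold change of Ifitm3 ran from 1.46 to 4.10 and that of Irf1 from 3.38 to 4.61. The value of 4.10 came without KO day 0 replicate 1, and without that library the log2 fold change of Isg20 was 14.27.

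In the libraries labelled WT, the days did not separate the members in a common direction. The fitted level was higher at day 39 for 14 of 28 (background 61.8%), with a median log2 fold change of 0.37 against 1.64 over all entries (-0.52 against 0.48 with upper-quartile scaling). None passed the edgeR test at an adjusted p of 0.05 (background 0.0143%), and 1, Parp14, had an unadjusted p under 0.05 (background 6.68%, and 3.45% for lower entries). Parp14 was lower at day 39 by a log2 fold change of -10.45 ± 5.22 (adjusted p 0.414 by edgeR), with all day 39 libraries at 2 counts or fewer. Cxcl10 was at least 128-fold higher at day 39 by the floor, with 1 of 3 libraries above 100 counts (adjusted p 0.414 by edgeR). Day 39 libraries lay above those of day 0 without overlap for Trim25 and Dtx3l (background 12.7%) and below for Parp14 (background 4.72%). With upper-quartile scaling Trim25 overlapped, and Irf8, Ifitm3 and Cxcl9 lay below as well. With DESeq2 size factors Ifitm3 also lay below. DESeq2 called 3 higher, Dhx58, Dtx3l and Irf7, where it called 14.7% of all entries higher and 16.9% in either direction.

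At day 0, the libraries labelled KO stood lower than those labelled WT for Irf1, Parp14, Gbp3 and Samd9l without overlap (4 of 28, background 5.25%), and higher without overlap for none (background 6.73%). With upper-quartile scaling Irf8 and Ifitm3 were also lower without overlap, and with DESeq2 size factors Ifitm3 was. The median log2 fold change of the 28 was -0.46 against 1.08 over all entries (-1.28 against 0 with upper-quartile scaling). In the same libraries the skeletal muscle markers summed to 2046, 21654 and 18385 CPM (KO) and 1752 and 6531 CPM (WT). The sort markers summed to 55552, 16106 and 11674 CPM (KO) and 34921 and 39304 CPM (WT). The part of these in the difference was not tested. None of the 28 passed the edgeR test at an adjusted p of 0.05 (background 0.0143%). There were 3 members at an unadjusted p under 0.05 (background 7.99%), Gbp3, Samd9l and Isg20, all lower in the KO libraries (background 5.94%). Samd9l was at least 914-fold higher in WT by the floor, resting on WT day 0 library 2, and had an adjusted p of 0.381 by edgeR. Isg20 had a log2 fold change of -8.24 ± 3.0 (adjusted p 0.381 by edgeR), which became 0.51 without WT day 0 replicate 1. Irf1 had a log2 fold change of -4.07 ± 2.45 (adjusted p 0.381 by edgeR). DESeq2 called 2 members lower in KO, Samd9l and Isg20, where it called 3.41% of all entries lower and 17.9% in either direction.

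At day 39, Zbp1 and Ifitm3 stood higher in the libraries labelled KO without overlap (2 of 28, background 3.41%), and Dtx3l and Samd9l lower (2 of 28, background 3.99%). Samd9l overlapped when scaled by library size only. Zbp1 had a log2 fold change of 4.79 ± 3.21 (adjusted p 0.498 by edgeR) and Ifitm3 of 1.33 ± 1.12 (adjusted p 0.626 by edgeR). Leaving out 1 library moved that of Zbp1 between 3.26, without KO day 39 replicate 3, and 9.02, without WT day 39 replicate 2. That of Ifitm3 moved between 0.81, without WT day 39 replicate 1, and 1.99, without WT day 39 replicate 3. The smallest p-values were those of Samd9l and Igtp, with log2 fold changes of -9.68 ± 5.22 and -9.33 ± 5.49 and an adjusted p of 0.491 each by edgeR. None of the 28 passed the edgeR test at an adjusted p of 0.05 (background 0.0286%) and none had an unadjusted p under 0.05 (background 7.28%). DESeq2 called 2 members lower in KO, Dtx3l and Samd9l, where it called 5.07% of all entries lower and 8.37% in either direction. The median log2 fold change was 0.45 against 0 over all entries.

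The change between days was also compared between the genotype labels. No member and no other entry passed the edgeR interaction test at an adjusted p of 0.05 (0% of 6987). Gbp3 and Isg20 had an unadjusted p under 0.05 (2 of 28, background 14.4%), with interaction terms of 13.48 ± 6.18 and 7.67 ± 3.48 on the log2 scale and an adjusted p of 0.324 each by edgeR. The term of Gbp3 was 1.10 without KO day 39 replicate 1, 6.15 without WT day 0 replicate 1 and -1.09 with the replicate block. The term of Isg20 became -1.29 without WT day 0 replicate 1. DESeq2 called 0 members and 13.4% of all entries. Each contrast between 2 groups shares libraries with 2 of the other 3 such contrasts, and is not independent of them.

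The wider pathway was read from 118 other genes, of which 61 were tested. None passed the edgeR test at an adjusted p of 0.05 in any of the 6 contrasts, and between 1 and 10 had an unadjusted p under 0.05 (background 6.68% to 19.2% over the contrasts). DESeq2 called between 6 and 13 of the 61 per contrast (9.84% to 21.3%, against 8.37% to 17.9% of all entries). All 19 interferon ligand genes had no count in any library. The receptor kinase gene Jak1, with at least 100 counts in 9 libraries, averaged 272 ± 300 CPM (SD) over 3 KO day 0 libraries, 564 ± 798 CPM over 2 WT day 0 libraries, 137 ± 108 CPM over 3 KO day 39 libraries and 423 ± 234 CPM over 3 WT day 39 libraries. The feedback inhibitor gene Socs3 and Unc93b1, a chaperone of endosomal Toll-like receptors, were among those detected in all 11 libraries. Socs3 averaged 313 ± 140, 2087 ± 517, 656 ± 551 and 979 ± 354 CPM in the same group order, with a log2 fold change of -2.74 ± 1.39 for KO against WT at day 0 (adjusted p 0.381 by edgeR). Unc93b1 stood at 158 ± 69.5, 1036 ± 141, 646 ± 427 and 690 ± 216 CPM, with a log2 fold change of -2.71 ± 1.74 at day 0 (adjusted p 0.387 by edgeR). Lgals3bp and Ly6e were detected in all 11 libraries, and Lgals9 and the immunoproteasome gene Psmb8 in 9.

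Markers of other cells varied across the libraries. The summed macrophage markers ranged from 11134 to 32431 CPM. Of the 12, 11 reached 100 counts somewhere and Mertk had no count. The markers of the sort summed to 11674 to 55552 CPM, with 0 of 7 at 0 throughout. The lowest of these sums, 16106 and 11674 CPM, were those of KO day 0 libraries 2 and 3, which had the lowest summed levels of interferon-stimulated genes (318 and 1330 CPM). The highest was that of KO day 0 library 1, whose interferon-stimulated genes came to 4021 CPM. The highest sums of interferon-stimulated genes, 5777 and 6003 CPM, were those of KO day 39 libraries 1 and 3, with sort markers at 20832 and 25233 CPM. With upper-quartile scaling the highest sort marker sum was that of WT day 0 library 2, at 174382 CPM, against 57570 CPM in KO day 0 library 1. The 7 skeletal muscle markers summed to 21654 and 18385 CPM in KO day 0 libraries 2 and 3 and to 14059 CPM in WT day 39 library 2, against 1752 to 6531 CPM in the others. KO day 0 libraries 2 and 3 also had the highest stromal sums, 18508 and 19361 CPM. Upper-quartile scaling put WT day 0 library 2 above them in both lists, at 28975 CPM for muscle and 67489 CPM for stroma. The 12 epithelial markers summed to 74.7 to 1776 CPM at day 0 and 1582 to 8624 CPM at day 39. With upper-quartile scaling WT day 0 library 2 stood at 7880 CPM for these, above every day 39 library (at most 6277 CPM). Dendritic cell markers were nearly absent, with 5 of 7 (Flt3, Zbtb46, Clec9a, Itgae and Ccr7) at 0 in all libraries and a sum of at most 6.97 CPM. Monocyte markers summed to 76.8, 302 and 130 CPM in the KO day 0 libraries, 766 and 1.41 CPM in the WT day 0 libraries, 545, 818 and 1441 CPM in the KO day 39 libraries and 15.2, 219 and 343 CPM in the WT day 39 libraries. All KO day 39 libraries were thus above all KO day 0 and all WT day 39 libraries under each of the 4 scalings. At most 2 of the 6 monocyte markers reached 100 counts in any library. The gate against Ly6C leaves out classical monocytes. Neutrophil markers summed to 0 to 236 CPM with 1 of 5 at 0 (Mpo). Plasmacytoid dendritic cell markers summed to 0.707 to 1101 CPM with 2 of 6 at 0 (Ccr9 and Runx2), and Ly6d made up 1101 CPM of the highest sum, in KO day 0 library 1. B and plasma cell markers summed to 0 to 210 CPM, and T and NK cell markers to 0 to 416 CPM with 5 of 8 at 0 (Cd3e, Cd3g, Cd8a, Gzmb and Klrb1c). The part of muscle, stromal, epithelial and monocyte RNA, and of the level of the sort markers, in the differences between groups was not tested, and in such bulk samples fewer cells of a type and less RNA per cell cannot be told apart.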

How the data were processed

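RNA of sorted colonic macrophages was made into libraries with the Lexogen QuantSeq kit, per the labels' protocols; this kind of kit samples each transcript close to its 3′ end. The authors deposited 1 file per library, in which each gene symbol has a raw count, with no header on strand or molecular identifiers. The submitters' processing notes name Bowtie2, edgeR and the human build hg19 without versions or roles, while the files list mouse symbols, so the reference behind the counts is uncertain. Groups and replicate numbers were taken from the titles; file names differ from them in places (day 35 for day 39, number 3 for 2).

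Counts were fitted with edgeR 4.0.16 in R 4.3.3 (filterByExpr, TMM, robust quasi-likelihood, 1 coefficient per group, all 11 libraries), with 2-sided tests of 6 contrasts and Benjamini-Hochberg adjustment over 6987 entries. SE is the log2 fold change over the square root of F. CPM uses the TMM-scaled total of tested entries. A fold against a group at 0 uses a floor of 3 counts per library. Members given in every library had 100 counts in 6 or more libraries, an adjusted p under 0.05, or 1 of the 2 smallest p-values in a contrast; Isg20 met the last. The members and gene lists were chosen with earlier results of these data known. DESeq2 1.42.0, other scalings, filters, a replicate block and fits without each library were alternatives. On simulated data with 200 entries changed 16-fold between days, the edgeR test recovered 200 at a dispersion of 0.1 and 0 at a dispersion of 6, near the spread of these libraries (common coefficient of variation 2.48). Promoters are RefSeq sequences, and shared 3′ ends were found as 50-base matches in the last 300 bases of GENCODE mouse transcripts. Some genes of the pathway and marker lists are not reported here.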

Additional observations from a re-analysis of the deposited data

How the results depend on the processing

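Of 430 alternative fits of the 24 member results with a log2 fold change, 410 kept direction and side of the threshold, 12 turned direction, 7 came to pass the threshold and 1 had no change left (Gbp3 in KO, a log2 fold change of 0 without KO day 39 replicate 1), while 0 were lost since none had passed; the cause of these changes was not tested. By edgeR, members called stayed at 0 in every contrast and setting except 1 (Isg20) over both labels without KO day 0 replicate 1, a range of 0 to 1. DESeq2 called 2, 2, 3, 4 and 5 members for KO against WT at day 0 and day 39, day 39 against day 0 in WT, in KO and over both labels. Entries called changed more. For KO against WT at day 0 the count of 1 became 0 without a filter, with a mean count of at least 10, unscaled beyond library size or with the replicate block, 1249 with DESeq2 and 0 to 5 leaving out 1 library. At day 39 the count of 2 became 0 with upper-quartile scaling, no filter or a mean of at least 10, 1 with the replicate block, 585 with DESeq2 and 0 to 2 leaving out 1 library. In WT the count of 1 became 0 without a filter, with a mean of at least 10, with DESeq2 size factors, unscaled beyond library size or with the replicate block, 1183 with DESeq2 and 0 to 1 leaving out 1 library. In KO the count of 11 became 0 with upper-quartile scaling or no filter, 5 with a mean of at least 10, 1144 with DESeq2 and 5 to 15 leaving out 1 library. Over both labels the count of 21 became 9 with library size only, 51 with upper-quartile scaling (2 higher and 49 lower), 2 with no filter, 3 with a mean of at least 10, 7 with the replicate block, 1216 with DESeq2 and 1 to 62 leaving out 1 library. For the interaction the count of 0 became 2 unscaled beyond library size, 2 with DESeq2 size factors, 5 with upper-quartile scaling, 934 with DESeq2 and 0 to 8 leaving out 1 library. Upper-quartile scaling moved the median log2 fold change of all entries over both labels from 0.76 to 0.18, and turned Ifitm3 to -0.28 and Irf8 to -0.21. Of the libraries, it raised the CPM of WT day 0 library 2 most. The replicate block turned Bst2 to 0.10 and the interaction term of Gbp3 to -1.09. Deviations of same-numbered libraries of different groups correlated at -0.0137 to 0.0697 (15 pairs), and those of differently numbered libraries at -0.0697 to 0.0457 (30 pairs). With 2 or 3 libraries per group and a wide spread between them, this cannot decide whether the numbers pair the libraries. Leaving out 1 library gave ranges over both labels of -1.80 to 3.89 for Zbp1, -4.89 to 4.76 for Isg15, -0.23 to 3.60 for Ifitm2 and -1.51 to 5.16 for Bst2. It gave -13.40 to 0.51 for Isg20 in KO against WT at day 0 and -1.29 to 12.82 for its interaction. A fit without a WT day 0 library leaves 1 sample there, which is assumed to vary like the others. The summed level of WT day 0 was 13134 CPM with upper-quartile scaling and 2920 without Ifitm3. That of KO day 39 was 4692 with deposited totals, 4212 with upper-quartile scaling and 3360 without Ifitm3. Members detected per library at 1 count were 16, 22, 21.7 and 27.3 for KO day 0, WT day 0, KO day 39 and WT day 39. At 1000 counts they were 5.67 and 4.67 for KO and WT day 39, and at 10 counts 17.7 for WT day 39. Depth limits members at 0 to the floor of 3 counts.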
